A study of Mus musculus with 24 samples.

Results

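The histone deacetylase family was examined at the level of its transcripts in the nucleus accumbens (NAc) and the ventral tegmental area (VTA) of mice. Its members were taken by gene symbol and were Hdac1, Hdac2, Hdac3, Hdac4, Hdac5, Hdac6, Hdac7, Hdac8, Hdac9 and Hdac11, which are 10 of the 30270 gene identifiers in the data. All 10 were present in each of the 8 deposited tables and passed the filter on low values in every comparison. Wild-type and Vdr-/- mice, which lack the vitamin D receptor in every tissue, were injected with PBS or with morphine at 5 mg/kg. Each combination of genotype and injection had 3 mice. Both regions of the 12 mice were punched from frozen tissue, which gave 24 libraries. All mice were on a C57BL/6 background, their ages are not given in the labels, and chow enriched in calcium is stated for the Vdr-/- mice and not for the wild-type mice. The tissue was taken 90 min after PBS or morphine in the study's account of the NAc sequencing. Its methods for quantitative PCR and western blot, which also describe the punches, give 60 min for saline. The wild-type mice were numbered 1, 2 and 3 (PBS) and 1.0, 1.1 and 1.2 (morphine), and the Vdr-/- mice 7, 8 and 9 (PBS) and 2.0, 2.1 and 2.2 (morphine). The injections thus carry separate series of numbers, whose meaning the labels do not give.

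Histone deacetylases remove acetyl groups from lysines of histones and other proteins, which generally closes chromatin and lowers transcription. Class I enzymes (Hdac1, Hdac2, Hdac3 and Hdac8) are mostly nuclear and carry most of the catalytic activity. Of these, Hdac1, Hdac2 and Hdac3 act within the Sin3, NuRD, CoREST and NCoR complexes. Class IIa enzymes (Hdac4, Hdac5, Hdac7 and Hdac9) have little activity of their own, bind MEF2 transcription factors and leave the nucleus when kinases of the CaMK, PKD and SIK families phosphorylate them. Hdac6 (class IIb) is a cytoplasmic deacetylase of tubulin, and Hdac11 is the only enzyme of class IV. In the NAc, class IIa enzymes have been studied for their part in the response to cocaine and other drugs of abuse.

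The promoters of the 4 members on which the results below turn are shown because these members differed between injections or between regions in opposite directions. The RefSeq table of promoters on GRCm38.p6 held 12 windows for 8 of the 10 members, and none for Hdac1 and Hdac3. The 250 bases before the annotated start are given, on the strand of the gene, 5′ to 3′. Capitals mark the letters TGACG (the core of a cAMP response element), TGANTCA (an AP-1 site) or GGGCGG (a GC box), searched on both strands.
Hdac4, chr1:92180342-92180591, minus strand: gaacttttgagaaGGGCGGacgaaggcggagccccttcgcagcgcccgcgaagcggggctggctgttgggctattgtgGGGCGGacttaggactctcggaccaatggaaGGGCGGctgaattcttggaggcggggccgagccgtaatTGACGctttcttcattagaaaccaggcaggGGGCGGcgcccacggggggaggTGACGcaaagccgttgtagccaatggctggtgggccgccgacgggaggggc
Hdac5, chr11:102230173-102230422, minus strand: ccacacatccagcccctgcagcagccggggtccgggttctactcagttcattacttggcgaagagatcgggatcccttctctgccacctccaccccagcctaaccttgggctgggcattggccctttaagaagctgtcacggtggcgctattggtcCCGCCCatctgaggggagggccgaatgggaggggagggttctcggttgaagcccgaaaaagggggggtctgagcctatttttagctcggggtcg
Hdac9, chr12:34917096-34917345, minus strand: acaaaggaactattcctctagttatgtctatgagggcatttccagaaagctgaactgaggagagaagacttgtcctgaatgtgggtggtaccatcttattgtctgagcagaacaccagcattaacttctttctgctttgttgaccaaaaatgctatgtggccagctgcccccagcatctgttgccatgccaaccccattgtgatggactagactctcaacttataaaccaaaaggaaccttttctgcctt
Hdac2, chr10:36974294-36974543, plus strand: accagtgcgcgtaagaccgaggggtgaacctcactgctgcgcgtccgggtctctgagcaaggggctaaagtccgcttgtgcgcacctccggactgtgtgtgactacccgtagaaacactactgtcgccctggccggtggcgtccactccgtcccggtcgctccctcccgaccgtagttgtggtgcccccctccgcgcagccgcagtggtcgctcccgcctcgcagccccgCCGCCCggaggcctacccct
The Hdac4 window held 4 GC boxes and 2 TGACG cores, the Hdac5 and Hdac2 windows held 1 GC box each, and the Hdac9 window printed held none of these letters. A second Hdac9 window of the table, which is not printed, at chr12:34528890-34529139 on the minus strand, held 1 AP-1 match. The Hdac4 window lies inside the gene, since other Hdac4 transcripts start further upstream, and none of the 4 windows overlaps an annotated exon. Over all 32851 promoters of the table, 32.7% held a GC box, 17.8% a TGACG core and 6.75% an AP-1 site, against 6, 2 and 1 of the 12 windows of members. The full palindrome TGACGTCA was held by 1.55% of all promoters and by 0 of the 12 windows of members. A vitamin D response element, searched as GGTCA repeated in the same direction with 4 free bases between, was held by 0.0457% of all promoters and by 0 of the 12. These windows also differed in base composition, with 23 CG pairs for Hdac4, 27 for Hdac2, 12 for Hdac5 and 0 for Hdac9. A match is a run of letters and was not tested as a binding site.

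Several properties of the libraries bear on the members. The libraries held 9328726 to 30184426 reads on genes, and the members had between 117 (Hdac8) and 8319 (Hdac11) reads in a library. Vdr itself had 1 to 14 reads per wild-type and 0 to 10 per Vdr-/- library in the NAc. In the VTA it had 2 to 17 and 3 to 17. These ranges overlapped, so the genotype labels could not be checked by the reads of Vdr. Whether more depth would separate the genotypes was not tested. The labelled tissues carried their markers. The summed level of 9 medium spiny neuron markers was 2464 to 5001 CPM (reads scaled to the same library total) in the NAc and 260.9 to 322 in the VTA. That of 8 dopamine neuron markers was 180.7 to 2810 in the VTA and 27.89 to 41.06 in the NAc. Markers of neighbouring tissue also varied between libraries. The sum of 5 cortical excitatory neuron markers was 394.4 to 1142 CPM in the NAc and 7.4 to 164 in the VTA. That of 4 choroid plexus markers was 113.4 in the VTA of Vdr-/- morphine mouse 2.1, where the VTA median was 5.88. One library stood apart, that of wild-type PBS mouse 2 in the NAc, in which the deviation of genes from the other libraries fell with exon length (Spearman rho −0.443 across genes). This rho was 0.0494 to 0.259 in all 12 morphine libraries, −0.244 to −0.048 in the 6 PBS libraries of the VTA and −0.443 to 0.1 in the 6 of the NAc. Exon bases are counted here over all annotated transcripts of a gene. The class IIa genes have many, with 15813 (Hdac4), 14665 (Hdac9), 8780 (Hdac5) and 6755 (Hdac7), against 3445 to 4839 for class I. The part of exon length in the differences between injections was not tested.

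The levels of the members, given as RPKM (reads per kilobase of exon in a library scaled to a fixed total), spanned a wide range and held nearly the same order in both regions. Hdac11 was the most abundant member, at 48.7 ± 4.5 RPKM in the NAc and 74.0 ± 3.9 in the VTA (SD, n = 12 libraries), and lay above the next member in 12 of 12 libraries of each region. Hdac3, the enzyme of the NCoR complex, had 20.02 ± 1.53 RPKM in the NAc and 22.8 ± 1.22 in the VTA. Hdac5 had 19.4 ± 1.91 and 21.9 ± 1.05. The order of Hdac3 and Hdac5 was not fixed, since Hdac3 lay above Hdac5 in 5 of 12 NAc libraries and 9 of 12 VTA libraries. Hdac2, a class I enzyme abundant in neurons, stood at 14.1 ± 1.07 RPKM in the NAc and 11.95 ± 1.01 in the VTA, and Hdac6 at 11.5 ± 0.893 and 13.1 ± 0.97. These exchanged places between regions. Hdac2 was above Hdac6 in 12 of 12 NAc libraries, and Hdac6 above Hdac2 in 10 of 12 VTA libraries. Hdac1 and Hdac7 followed, at 5.65 ± 0.502 and 5.39 ± 0.526 RPKM in the NAc and 7.64 ± 0.512 and 8.39 ± 0.833 in the VTA. The lowest levels were those of Hdac4 (4.18 ± 0.804 and 4.26 ± 0.487), Hdac8 (2.63 ± 0.273 and 3.33 ± 0.153) and Hdac9 (2.07 ± 0.334 and 3.28 ± 0.493). Hdac8 and Hdac9 could not be ordered in the VTA, where Hdac8 was higher in 5 of 12 libraries. Among genes with over 10 reads, Hdac11 lay at percentile 96.0 in the NAc and 97.9 in the VTA, and Hdac9 at 31.8 and 42.5. The order and the percentiles depend on the division by exon length. In reads without this division, Hdac4 (median 1030 in the NAc and 1154 in the VTA) lay above Hdac1 (328.5 and 471.5). Hdac9 (512 and 852) also lay above Hdac1, and Hdac8 had the lowest medians (222.5 and 289.5).

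**Figure D1:**
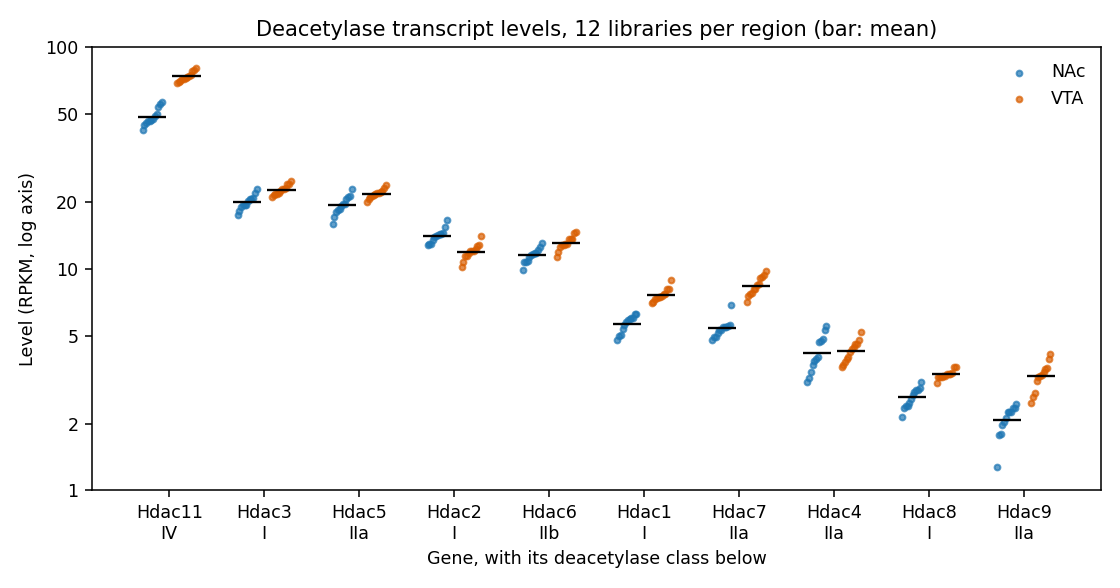
Level of each deacetylase in RPKM on a log axis, in the 12 NAc and 12 VTA libraries. Points are libraries, bars are means, and genes are in the order of their NAc means. Hdac11 sits above all others in both regions, and Hdac2 is the one gene whose NAc mean lies clearly above its VTA mean.

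Both regions of a mouse were compared within the mouse, on log2(scaled reads + 1) of reads scaled over all 24 libraries. Of the 10 members, 9 passed an adjusted p of 0.05 (limma, Benjamini-Hochberg over 16147 genes), where 72.9% of all genes tested did. Of these 9, 8 were lower in the NAc, against 37.8% of all genes tested, and Hdac2 alone was higher. A share of 9 in 10 called in either direction is near the background of 72.9%. The share called lower in the NAc, 8 of 10, lay above the 37.8% of all genes, and this excess was not tested. The median difference of the members was −0.21 on the log2 scale, against −0.02 over all genes. How many of all genes agree in every mouse, or do not overlap between regions, was not counted. Such agreement or separation is given below only as a description of single members. In bulk tissue a difference in cell types and a difference in transcript per cell cannot be told apart.

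Among class I genes, Hdac2 was higher in the NAc in 12 of 12 mice. Its scaled reads ran from 984.3 to 1284 in the NAc (median 1080) and from 745.2 to 1002 in the VTA (median 883.7), so the regions overlapped slightly. The log2 difference was 0.30 (SE 0.03), with an adjusted p of 8.3e-07 and an exact sign-flip p of 0.000488, two-sided, the smallest that 12 mice allow. Hdac1, which often shares complexes with Hdac2, went the other way. It had 290.7 to 362.9 scaled reads in the NAc and 401.6 to 485.9 in the VTA, without overlap, and was higher in the VTA in 12 of 12 mice (log2 −0.38, SE 0.04, adjusted p = 1.42e-06, exact sign-flip p = 0.000488). Hdac8 was 1.22-fold higher in the VTA, in 12 of 12 mice (log2 −0.29, SE 0.06, adjusted p = 0.000459). Hdac3 differed least within the class, at 1.09-fold higher in the VTA and in 10 of 12 mice (log2 −0.12, SE 0.03, adjusted p = 0.00321).

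Class IIa genes fell into 2 pairs. Hdac9, with many exon bases and a low RPKM, had 316.3 to 603.9 scaled reads in the NAc and 590.7 to 996.2 in the VTA. It was 1.52-fold higher in the VTA, in 12 of 12 mice (log2 −0.61, SE 0.06, adjusted p = 1.8e-06). The per-mouse values ran from −1.32, in wild-type PBS mouse 2, to −0.18 with a median of −0.48, and without that mouse the difference was −0.57. Hdac7, best known from endothelial cells and thymocytes, had 558.6 to 782.7 and 798.8 to 1053, without overlap, and was 1.49-fold higher in the VTA in 12 of 12 mice (log2 −0.57, SE 0.05, adjusted p = 7.39e-07). The summed level of 6 endothelial markers was 145.2 to 196.4 CPM in the NAc and 171.8 to 264.2 in the VTA, and all 6 were lower in the NAc. Their part in the difference of Hdac7 was not tested. Hdac5 was 1.08-fold higher in the VTA and in 9 of 12 mice (log2 −0.12, SE 0.03, adjusted p = 0.00837). Hdac4 had 823.5 to 1464 in the NAc and 942.7 to 1333 in the VTA, and its difference was not detected (log2 0.02, SE 0.04, adjusted p = 0.677, higher in the NAc in 6 of 12 mice).

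Outside these classes, Hdac11 was 1.46-fold higher in the VTA. Its scaled reads ran from 2853 to 3699 in the NAc and from 4347 to 5115 in the VTA, which did not overlap, and 12 of 12 mice agreed (log2 −0.54, SE 0.04, adjusted p = 7.78e-08). Hdac11 is abundant in oligodendrocytes as well as in neurons. The summed level of 8 oligodendrocyte markers was 3831 to 6134 CPM in the NAc and 6253 to 13299 in the VTA, and all 8 were lower in the NAc. Their part in the result was not tested. Hdac6 was 1.09-fold higher in the VTA, in 11 of 12 mice (log2 −0.12, SE 0.04, adjusted p = 0.00894).

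**Figure D2:**
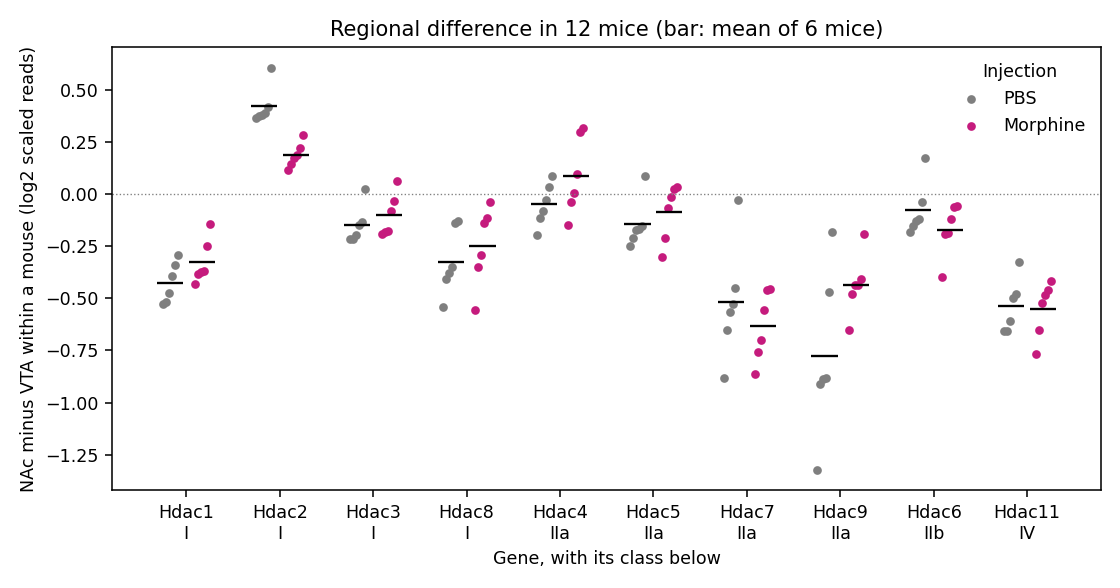
Difference between NAc and VTA of the same mouse in log2 scaled reads, for each deacetylase, in 6 PBS mice and 6 morphine mice. Points are mice and bars are means; only Hdac2 lies above 0 in every mouse, and its morphine points (0.116 to 0.284) sit below all its PBS points (0.365 to 0.607).

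Whether the regional difference depended on the injection was asked with the difference of these differences. Of the 10 members, 1 passed, Hdac2, where 12.4% of all genes tested did. A share of 1 in 10 is near that background. In PBS mice its NAc excess was 0.42 ± 0.09 on the log2 scale (SD, n = 6), with values from 0.365 to 0.607. In morphine mice it was 0.19 ± 0.06, from 0.116 to 0.284. The difference was −0.23 (SE 0.06, adjusted p = 0.0226, limma). The groups did not overlap, which by itself sets the exact permutation p at 0.00216, two-sided, the smallest possible for 6 mice against 6. How many of all genes separate in this way was not counted. Within the single regions, Hdac2 did not pass in any morphine comparison, at −0.10 and −0.01 in the NAc and 0.11 and 0.13 in the VTA. The adjusted p lost the threshold without wild-type morphine mouse 1.0 (0.0509) or Vdr-/- morphine mouse 2.1 (0.0577). Levels of neuron markers are given beside this result. Medium spiny neuron markers summed to 2464 to 3582 CPM in the NAc of morphine mice and to 3770 to 5001 in that of PBS mice. Dopamine neuron markers in the VTA summed to 180.7 to 511.9 in wild-type mice given morphine and to 2256 to 2810 in those given PBS, while in Vdr-/- mice the sums overlapped (543.7 to 1091 and 478.2 to 2138). Their part in the difference of Hdac2 was not tested. The injections also carry separate series of mouse numbers, from which the design cannot tell morphine apart. Hdac9 had a regional difference of −0.43 ± 0.15 after morphine and −0.78 ± 0.40 after PBS, which did not pass (0.34, SE 0.12, adjusted p = 0.0924). None of the 10 members passed when the regional difference was compared between genotypes, where 0% of all genes did at the adjusted threshold and 902 at an unadjusted p under 0.05 (limma). Fitted without the pairing by mouse, 1 gene passed. The largest member there was Hdac9 (0.27, SE 0.12, unadjusted p = 0.0488, adjusted p = 0.882).

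The balance of the classes was read within each library as the log2 ratio of summed class IIa to summed class I RPKM, which does not depend on the scaling between libraries. By this measure class I outweighed class IIa in 24 of 24 libraries. The ratio averaged −0.46 ± 0.10 in the NAc (SD, n = 12) and −0.27 ± 0.07 in the VTA. It was higher in the VTA in 12 of 12 mice, by 0.18 ± 0.10, from 0.0276 in Vdr-/- morphine mouse 2.0 to 0.326 in wild-type PBS mouse 1. Of the summed RPKM of the 10 members, class I took 29.8% to 33.6% in the NAc and 25.4% to 27.7% in the VTA. Class IIa took 20.8% to 25.5% and 20.9% to 23.4%, so the regions overlapped for class IIa and not for class I. Hdac11 took 34.2% to 39.4% in the NAc and 41.4% to 45.2% in the VTA. Counted in reads without division by exon length, class IIa exceeded class I in both regions, by 0.78 and 0.95 on the log2 scale. The exon length used joins the exons of all annotated transcripts of a gene. Which class is larger thus depends on the division by this length.

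By genotype and injection, the ratio in the NAc moved most among Vdr-/- mice. Their PBS libraries had −0.659, −0.542 and −0.489, and their morphine libraries −0.444, −0.331 and −0.312, so that every morphine library lay above every PBS library. In wild-type mice it was −0.44 ± 0.07 after PBS and −0.46 ± 0.05 after morphine (SD, n = 3), with overlap. In the VTA the group means lay between −0.31 and −0.24 and all groups overlapped. The exon-length rho of the Vdr-/- NAc libraries, in the order of the ratios above, was −0.0672, 0.0687 and −0.0835 after PBS. After morphine it was 0.08, 0.259 and 0.208. The part of exon length in the ratios was not tested. Of all genes tested between these 2 groups, 37.9% did not overlap. No test was made on these ratios, since the members were chosen with results of these data known.

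**Figure D3:**
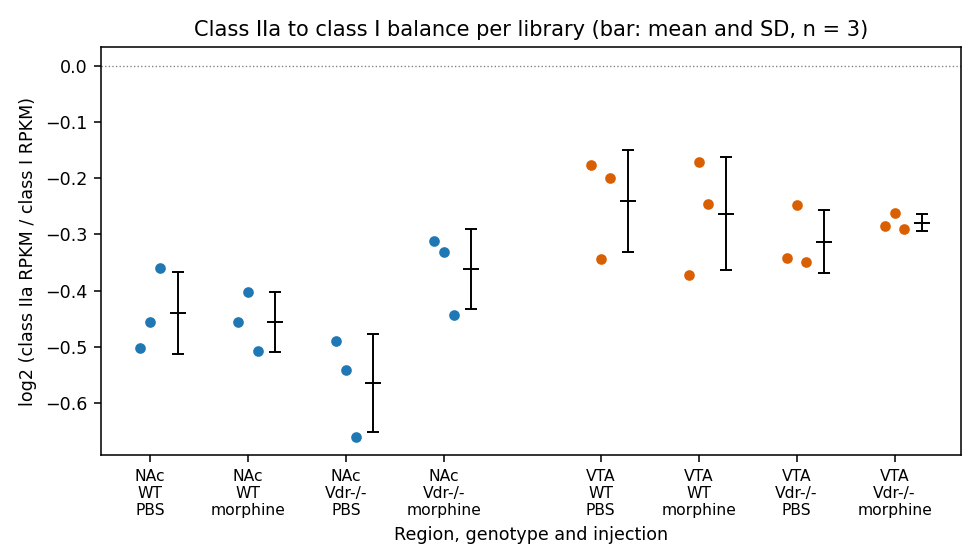
Log2 ratio of summed class IIa to summed class I RPKM in each library, by region, genotype and injection. Points are libraries and bars are mean and SD of 3; all points lie below 0, and in the NAc of Vdr-/- mice the morphine points (−0.444 to −0.312) lie above the PBS points (−0.659 to −0.489).

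Morphine was compared with PBS within each region and genotype on the deposited normalized counts. In the NAc of Vdr-/- mice, 2 of the 10 members passed, both of class IIa and both higher, where 19.1% of all 15820 genes tested passed and 9.94% passed as higher. A share of 2 in 10 is near the background.

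Hdac4, the class IIa repressor that shuttles in response to synaptic activity, changed most. Its normalized counts in the NAc of Vdr-/- mice were 1346, 1188 and 1291 after morphine and 931.6, 806.3 and 864.5 after PBS. The groups lay far apart without overlap, a 1.47-fold difference (log2 0.56, SE 0.07, adjusted p = 0.000374). The exact permutation p was 0.1, the smallest that 3 mice against 3 can give. The call held in all 5 other fits and when any 1 library was left out (log2 0.50 to 0.61). Of all genes tested here 37.9% did not overlap between the groups, and 4 of the 10 members did not. Hdac5, its relative most studied in the NAc, had 2893, 2884 and 2657 after morphine and 2412, 2499 and 2242 after PBS, again without overlap. The difference was 1.18-fold (log2 0.24, SE 0.06, adjusted p = 0.0123, exact permutation p = 0.1). It was lost without morphine mouse 2.1 (0.22, adjusted p = 0.0603) or without PBS mouse 9 (0.19, adjusted p = 0.0632). Hdac9 had 511.5, 539 and 555 after morphine and 477.3, 492.6 and 415.4 after PBS, and did not pass (log2 0.22, SE 0.08, adjusted p = 0.066). Hdac7, the fourth class IIa gene, did not move with them (log2 −0.01). The median of class IIa was 0.23 and that of class I 0.08, against −0.01 over all genes, and the 4 class I genes lay between −0.01 (Hdac2) and 0.16 (Hdac8).

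All 9 medium spiny neuron markers fell in this comparison, and their summed level was 2464 to 2823 CPM after morphine and 3770 to 4367 after PBS. Of 8 oligodendrocyte markers 5 fell, of 6 microglia markers 4 fell, and of 6 astrocyte markers 4 rose and 1 fell. Genes with over 8000 exon bases had a median log2 difference of 0.04 and those under 4000 bases −0.04. Their part in the changes of Hdac4 and Hdac5 was not tested. Hdac4 also shares 3536 of its exon bases (22.4%) with the antisense gene Gm26720. The library kit keeps strand, but which strand setting of the counter was used is not given in the sources used here.

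In the NAc of wild-type mice none of the 10 members passed by limma, edgeR or DESeq2, where 0.813% of all genes did (limma, 128 genes; 2616 at an unadjusted p under 0.05, among them 1 member). Hdac4 had 944.4, 1139 and 1144 after morphine and 948.2, 733.2 and 1001 after PBS, with overlap (log2 0.27, SE 0.14, adjusted p = 0.362). Hdac5 had 2749, 2574 and 2509 against 2701, 3028 and 2585, and leaned the other way (log2 −0.08, SE 0.09, adjusted p = 0.631). Hdac9 had 501.4, 501.2 and 534.5 against 411.8, 281.6 and 458, which did not overlap (log2 0.45, SE 0.17, adjusted p = 0.263), as 25.5% of all genes tested did not. The low PBS values of Hdac4 and Hdac9 both belong to mouse 2, the library that stood apart. Without it the difference of Hdac4 was 0.14 (adjusted p = 0.491) and that of Hdac9 0.24 (adjusted p = 0.171). Medium spiny neuron markers summed to 2814 to 3582 CPM after morphine and 4356 to 5001 after PBS in these mice, and 3 of 9 fell. Genes with over 8000 exon bases had a median log2 difference of 0.14 and those under 4000 bases −0.04, and the part of length was not tested.

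The morphine effects of the genotypes were compared directly. In the NAc, 0% of 15786 genes passed and 0 members did (limma, 916 genes at an unadjusted p under 0.05, also 0 genes by DESeq2 and edgeR). Hdac5 had the largest difference between the genotypes' morphine effects, 0.32 (SE 0.10, unadjusted p = 0.00774, adjusted p = 0.828), and Hdac4 had 0.28 (SE 0.16, adjusted p = 0.864). The morphine-against-PBS difference of Hdac4 and Hdac5 is therefore called in Vdr-/- mice. It is not shown to differ from that in wild-type mice. Injection coincided with a separate series of mouse numbers and may coincide with the time of collection. The design cannot tell morphine apart from these.

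**Figure D4:**
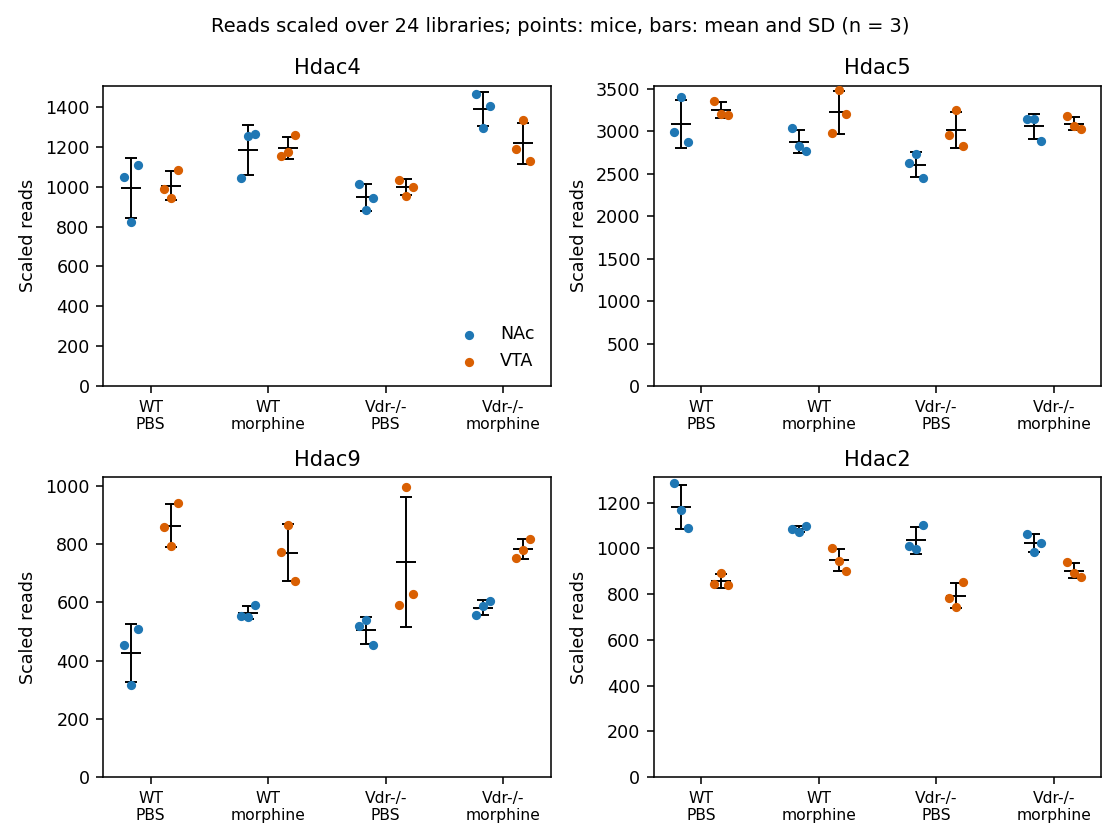
Reads of Hdac4, Hdac5, Hdac9 and Hdac2 scaled over the 24 libraries, in each group of 3 mice, for NAc and VTA. Points are mice and bars are mean and SD; the Hdac4 points of the NAc stand higher in Vdr-/- mice given morphine than in Vdr-/- mice given PBS, and the Hdac9 points of the VTA in Vdr-/- PBS mice spread widely, with mouse 8 at 996.2 scaled reads.

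In the VTA of Vdr-/- mice, 1 of the 10 members passed, Hdac9, where 10% of all 16364 genes did and 4.74% as higher. Its normalized counts were 853.7, 886.7 and 930 after morphine and 676.3 and 718.1 after PBS, without overlap (1.28-fold, log2 0.35, SE 0.06, adjusted p = 0.0221, exact permutation p = 0.1, the smallest for 3 mice against 2). The deposited table lacks Vdr-/- PBS mouse 8. With that mouse added from the other VTA table the difference was 0.12 and the adjusted p 0.691, so the call rests on its absence. It was also lost without morphine mouse 2.1 (0.35, adjusted p = 0.0562) or 2.2 (0.32, adjusted p = 0.0773), and without PBS mouse 7 (0.31, adjusted p = 0.175) or 9 (0.39, adjusted p = 0.0659). Hdac4 had 1352, 1514 and 1282 against 1186 and 1141, without overlap, and did not pass (log2 0.25, SE 0.08, adjusted p = 0.0814). Hdac7 had 976.8, 1125 and 1012 against 1160 and 1177 (log2 −0.17, SE 0.07, adjusted p = 0.151). Of all genes tested here, 48.4% did not overlap between the groups, and 6 of the 10 members did not. All 8 oligodendrocyte markers fell in this comparison. Of 6 microglia markers 2 fell, of 6 astrocyte and 6 endothelial markers 1 each fell, and of 9 medium spiny neuron markers 2 rose. Genes with over 8000 exon bases had a median log2 difference of 0.06 and those under 4000 bases −0.05. Their part was not tested.

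In the VTA of wild-type mice no member passed by limma, edgeR or DESeq2, where 3.65% of 16187 genes did (limma, 591 genes; 3919 at an unadjusted p under 0.05, among them 2 members). Hdac4 had 1274, 1296 and 1378 after morphine and 1107 and 1050 after PBS, without overlap (log2 0.29, SE 0.07, adjusted p = 0.0707). Hdac6 had 1494, 1379 and 1550 against 1220 and 1278, also without overlap (log2 0.24, SE 0.07, adjusted p = 0.115). Of all genes tested here, 44.3% did not overlap, and 3 of the 10 members did not. Both passed when morphine mouse 1.1 was left out (Hdac4 0.30, adjusted p = 0.0326, and Hdac6 0.29, adjusted p = 0.0257). Of 8 dopamine neuron markers 7 fell here, of 6 microglia markers 5 fell and of 6 astrocyte markers 2 fell. Of 9 medium spiny neuron markers 1 rose and 1 fell. Of 8 oligodendrocyte markers 0 passed, though all 8 had an unadjusted p under 0.05 (limma, median log2 −0.81). Their part was not tested. The PBS mouse 3 missing from this table changed neither call when added (Hdac4 0.24, adjusted p = 0.0578, and Hdac6 0.20, adjusted p = 0.0911). Genes with over 8000 exon bases had a median log2 difference of 0.04 here, and those under 4000 bases −0.04. The comparison of the genotypes' morphine effects in the VTA called 0% of 16240 genes (limma, 1739 at an unadjusted p under 0.05, 48 by DESeq2) and 0 members by either tool, and its largest member was Hdac9 at 0.30 (SE 0.23, adjusted p = 0.661).

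The genotypes were compared separately for each region and injection (Vdr-/- against wild type), and no member passed in any of the 4 comparisons. The genes that passed were 0.0690% of those tested in the NAc after PBS, 0.192% in the NAc after morphine, 0.390% in the VTA after PBS and 0.0624% in the VTA after morphine (limma). Over the 40 values the log2 differences lay between −0.27 and 0.28, and 3 had an unadjusted p under 0.05. edgeR and DESeq2 also called 0 of the 10 members in each of the 4. Hdac5 in the NAc after PBS had 2640, 2737 and 2451 normalized counts in Vdr-/- mice and 2987, 3332 and 2871 in wild-type mice, which did not overlap (log2 −0.23, SE 0.08, adjusted p = 0.507). Of all genes 16.9% did not overlap there, and 1 of the 10 members did not. Hdac4 in the NAc after morphine had 1218, 1073 and 1167 in Vdr-/- mice against 862.4, 1044 and 1046 in wild-type mice (log2 0.23, SE 0.08, adjusted p = 0.519). These comparisons share libraries with those of morphine against PBS, in which the same Vdr-/- PBS and morphine values stand on the other side.

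Hdac7 lies at chr15:97792664-97844502 on GRCm38, 9.923 kb from Vdr at chr15:97854425-97910630. In the VTA after PBS it had 1244, 1147 and 1261 normalized counts in Vdr-/- mice and 1055, 977.5 and 1094 in wild-type mice, all higher in Vdr-/- mice, in a comparison where 20.5% of all genes did not overlap (log2 0.22, SE 0.06, unadjusted p = 0.00764, adjusted p = 0.194). In the VTA after morphine the groups overlapped (log2 −0.05, adjusted p = 0.898). In the NAc the difference was −0.10 after PBS and 0.06 after morphine. Of the negative values, that in the NAc after PBS was 0.0059 without wild-type PBS mouse 2, and that in the VTA after morphine was 0.02 without wild-type morphine mouse 1.0.

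**Figure D5:**
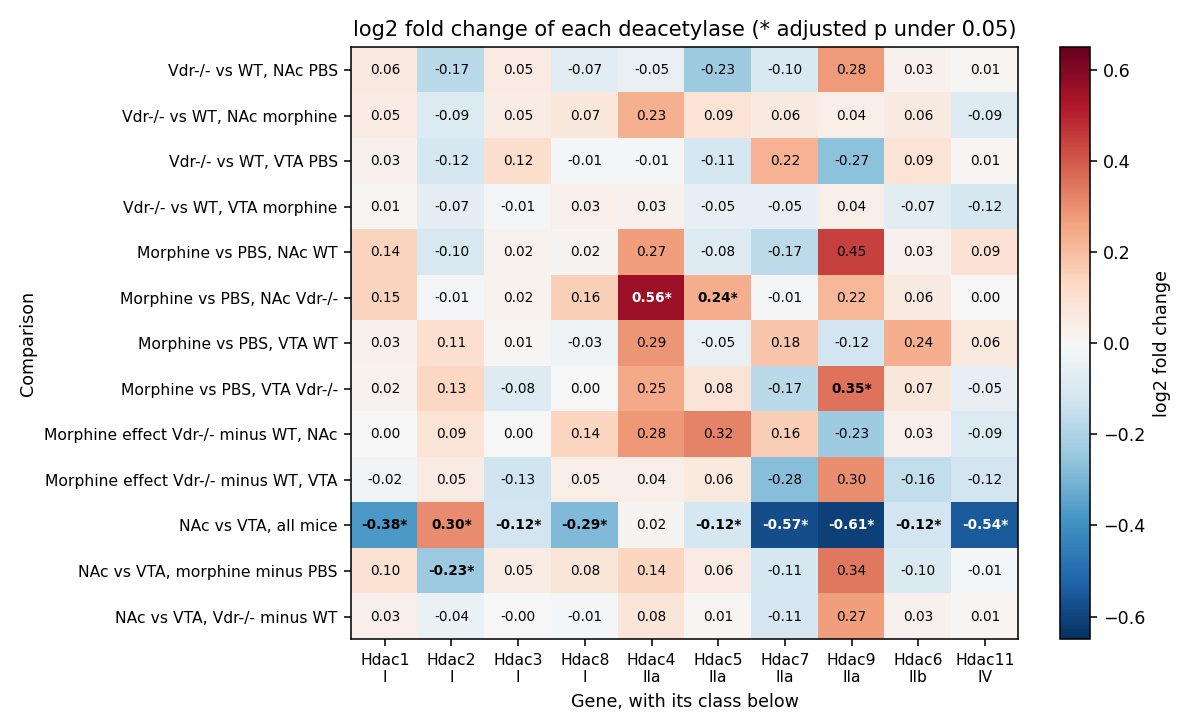
Log2 fold change of each deacetylase (columns, ordered by class) in each comparison (rows). An asterisk marks an adjusted p under 0.05; the row of NAc against VTA holds 9 asterisks, the 4 rows of Vdr-/- against wild-type mice hold none, and the 4 rows of morphine against PBS hold 3.

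The other genes of the acetylation machinery were read from lists of fixed content, which were chosen with earlier results known. Hdac10, the class IIb polyamine deacetylase, passed only between regions (log2 −0.14, adjusted p = 0.0385) among the comparisons made. In the NAc of Vdr-/- mice, where 19.1% of all genes passed and 9.94% as higher, 1 rose and 2 fell of 7 sirtuins, the NAD-dependent deacetylases, with Sirt1 at 0.41 (adjusted p = 0.00479), Sirt3 at −0.23 (adjusted p = 0.0496) and Sirt2 at −0.19 (adjusted p = 0.0357). Of 9 histone acetyltransferases, which add the mark that deacetylases remove, 1 rose (Ep300, 0.20, adjusted p = 0.0204) and 1 fell (Kat6b, −0.22, adjusted p = 0.0175). Of 25 genes of the class I corepressor complexes 4 rose, among them the scaffold Sin3b (0.30, adjusted p = 0.00162), and 1 fell, Rcor2 (−0.58, adjusted p = 0.0171). The acetyltransferases and corepressors were thus called about as often as all genes. The list medians were −0.08, 0.04 and 0.02, against −0.01 for all genes.

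Of 22 partners and kinases of class IIa tested, 5 rose and 6 fell in the NAc of Vdr-/- mice, with a median of −0.07 and against the same 19.1% of all genes called. Sik1, a kinase that phosphorylates class IIa enzymes and is itself induced by cAMP, rose from 343 ± 39.5 to 644 ± 21.4 normalized counts (log2 0.91, adjusted p = 0.000131). Prkd2 (protein kinase D2) rose by 0.48 (adjusted p = 0.0215). Camk4, the nuclear calmodulin kinase, had a log2 change of −0.60 (adjusted p = 0.000264). In wild-type NAc, where 0.813% of all genes passed, 1 of the 22 did, again Sik1 (0.58, adjusted p = 0.039). In the VTA, 2 rose and 1 fell in wild-type mice, where 3.65% of all genes passed (Camk2a 1.08, Camk2b 0.40, Prkd3 −0.55) and in Vdr-/- mice none of the 22 passed (limma, 4 at an unadjusted p under 0.05). Of 9 genes named as targets in work on deacetylases of the NAc, 6 rose in the NAc of Vdr-/- mice, with a median of 0.87, where 9.94% of all genes rose. They were led by Arc (1.28, adjusted p = 0.000728), Bdnf (1.25, adjusted p = 0.0028) and Fos (1.11, adjusted p = 0.0011), which are also general activity-induced genes. In the NAc of wild-type mice 0 of these 9 passed (limma, 0 at an unadjusted p under 0.05), with a median of −0.01, where 0.813% of all genes passed. When the genotypes' morphine effects were compared directly, 0 of the 9 passed (limma, 6 at an unadjusted p under 0.05), so a difference between genotypes is not called. In the VTA 1 rose in wild-type mice (Fosb, 1.16), where 3.65% of all genes passed. In Vdr-/- mice 5 rose, among them Fosb (1.04), Bdnf (0.77) and Fos (0.68), where 4.74% of all genes rose. The list medians were close, at 0.40 in wild-type and 0.46 in Vdr-/- mice. Compared directly between the genotypes in the VTA, 0 of the 9 passed (limma, 3 at an unadjusted p under 0.05). Between genotypes 1 of the 9 passed, Npas4 in the NAc after morphine, at 575 ± 45 normalized counts in Vdr-/- mice and 423 ± 17.2 in wild-type mice (log2 0.44, adjusted p = 0.044). In the VTA of Vdr-/- mice, against 10% of all genes called, 3 of 7 sirtuins fell (Sirt6 −0.40, Sirt2 −0.38, Sirt3 −0.33), 1 of 9 acetyltransferases rose (Crebbp, 0.25) and 5 of 25 corepressor genes rose, led by Chd3 (0.30).

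Between regions 72.9% of all genes passed, so calls in these lists are common. Of the corepressor genes, 17 of 25 were higher in the NAc and 4 lower. Ncor1, the scaffold of Hdac3, was higher in the NAc (0.56) while Hdac3 itself was lower. Of the 22 class IIa partners 14 were higher and 7 lower, with Mef2c, a transcription factor bound by class IIa enzymes, 3.21 higher on the log2 scale. Of 9 acetyltransferases 4 were higher, among them Kat6b (0.68), and 2 lower, among them Kat2b (−0.46). Of 7 sirtuins 2 were higher and 2 lower.

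The genes whose pattern was most like each member were found by the correlation of log2 scaled reads over the 24 libraries after removal of the regional means, among 12874 genes. This is a description over libraries that share their groups and depth. Hdac4 was matched most closely by Gm16702 (r = 0.913) and Nfil3 (r = 0.88), a transcriptional repressor. Hdac9 was matched by the neuronal membrane protein genes Slitrk4 (r = 0.879) and Clstn2 (r = 0.865). The nearest genes of Hdac2 were Shisa9 (r = 0.851) and Tomm34 (r = 0.844), those of Hdac1 Samd14 (0.845) and Hyi (0.81), and those of Hdac11 Ctxn2 (0.853) and Araf (0.815). Hdac6 was nearest to Camsap3 (0.824), a protein of microtubule minus ends, and Map3k12 (0.804). For Hdac5 they were Ttbk1 (0.793) and Smap2 (0.792), for Hdac3 Nrbp1 (0.788) and Zswim1 (0.784), and for Hdac7 Mbd6 (0.779) and Zc3hc1 (0.77). Hdac8 had the weakest match, Tmod3 (0.681) and Slc15a4 (0.664). Among the members themselves, Hdac6 and Hdac11 were most alike (r = 0.56), Hdac4 and Hdac9 had r = 0.422, and Hdac7 and Hdac9, both class IIa, were the most unlike pair (r = −0.573).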

How the data were processed

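The mRNA of NAc and VTA punches was sequenced as directional paired-end libraries. As per the labels and the study's methods, the authors trimmed with Trimmomatic 0.36, aligned to GRCm38 (GENCODE genes) by STAR 2.4.2a, took its counts per gene and divided these by DESeq2 size factors. The deposited normalized counts are thus a signal on the scale of reads, in 8 tables of 2 groups each. In every library 100% of the values were whole multiples of 1 read (tolerance 0.01), so the counts of reads were recovered from the deposited values. For morphine in the VTA, each of the 2 tables lacks 1 PBS library (wild-type mouse 3, Vdr-/- mouse 8) and so has 5.

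Tests took all genes whose value averaged 10 or more, as log2(value + 1), in limma 3.58.1 (trend), two-sided, with Benjamini-Hochberg adjustment over all genes and a threshold of 0.05. Fold changes on this scale are slightly understated for low genes. The difference between morphine effects used the recovered reads of the 12 libraries of a region, and the regional comparison the NAc minus VTA difference within each mouse, paired by the mouse number that both regions share in the labels. Same-mouse deviations in the 2 regions correlated by −0.0665 to 0.168. Levels per kilobase used the union exon length of GENCODE M21, which holds 99.8% of the 30270 gene identifiers. Alternatives were a pseudocount of 8, no filter, TMM scaling, edgeR 4.0.16, DESeq2 1.42.0, leaving out each library, the last digit of the mouse number as a block, and PBS libraries added from another table. No pair of replicates agreed within sampling noise (chi-square per degree of freedom of at least 3.99), and p-values measure the spread between mice. The limma fits were tested on simulated data.

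The genes named are the 10 members, Vdr, up to 3 genes past the threshold with the largest change of each list described, and the 2 genes most like each member, except for 1 gene of a list that is not reported here. The members and lists were chosen with earlier results of these data known, as were the 4 promoters printed.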

Additional observations from a re-analysis of the deposited data

Results flagged for a closer look

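The regional difference of Hdac2 passed the test by injection. NAc minus VTA was smaller in morphine mice than in PBS mice, with a difference of −0.23 on the log2 scale (SE 0.06, adjusted p = 0.0226, limma). All 6 morphine mice lay below every PBS mouse, and how many of all genes separate in this way was not counted. The difference missed the threshold without wild-type morphine mouse 1.0 (adjusted p = 0.0509) or Vdr-/- morphine mouse 2.1 (adjusted p = 0.0577). The adjusted p ran from 0.0154 to 0.0577 over the alternatives (limma and edgeR). Over all genes, 12.4% passed the same test, so 1 of 10 members is near the background. The injections carry separate series of mouse numbers, from which the design cannot tell morphine apart. The summed level of medium spiny neuron markers in the NAc did not overlap between injections in either genotype, while that of dopamine neuron markers in the VTA did not overlap in wild-type mice and overlapped in Vdr-/- mice. Their part in the result was not tested.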

How the results depend on the processing

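The calls of Hdac4 and Hdac5 under morphine in the NAc of Vdr-/- mice, of the 9 members between regions and of Hdac2 by injection held under a pseudocount of 8, no filter, TMM scaling and edgeR, and where run under DESeq2. Alternatives were compared for 34 results of members, not for every member in every comparison. Of 461 values under alternatives for these, 445 kept direction and side of the threshold. The 3 that turned sign were small and not called, each without 1 wild-type library: Hdac7 by genotype in the NAc after PBS (0.0059 without mouse 2, to −0.20 without mouse 1), Hdac7 by genotype in the VTA after morphine (0.0217 without mouse 1.0, to −0.14 without mouse 1.1) and Hdac5 under morphine in the wild-type VTA (0.0061 without mouse 1.0, to −0.11 without mouse 1.1). The cause was not tested.

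Counts of all genes called moved more. DESeq2 gave 63, 51, 290 and 95 genes for genotype in the NAc after PBS, the NAc after morphine, the VTA after PBS and the VTA after morphine, against 11, 30, 64 and 10 by limma. The edgeR test on the recovered reads gave 12, 29, 69 and 10. DESeq2 gave 493 and 1358 for morphine in wild-type NAc and VTA (128 and 591 by limma, 159 and 628 by edgeR), and 48 for the genotypes' difference in the VTA (0 by limma). For morphine in Vdr-/- NAc and VTA edgeR gave 3076 and 1764 and DESeq2 2045 and 1809 (3018 and 1639 by limma). With all 3 PBS libraries the VTA count was 2001 in wild-type and 1242 in Vdr-/- mice. The last digit of the mouse number as a replicate block gave 19 and 4 genes for genotype after morphine in the NAc and VTA (30 and 10 without). Same-digit mice did not deviate together (r −0.0582 to −0.0256 in the NAc and −0.261 to −0.123 in the VTA). So few pairs cannot decide whether the digit marks a batch, and the labels do not say. No member passed with the digit as a block. Treating the 24 libraries as unpaired called 1 gene for the regional difference by genotype (0 paired). Without length scaling the class ratio was 0.78 in the NAc and 0.95 in the VTA (−0.46 and −0.27 with it), which is the division by exon length.

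Leaving out 1 library at a time, the counts ranged from 2 to 28 (genotype, NAc PBS), 14 to 47 (NAc morphine), 13 to 370 (VTA PBS, 370 without Vdr-/- mouse 8) and 5 to 49 (VTA morphine). For morphine they ranged from 0 to 627 (wild-type NAc, 0 without morphine mouse 1.1 or 1.2 and 627 without PBS mouse 2), 1566 to 3133 (Vdr-/- NAc), 0 to 2817 (wild-type VTA, 0 without PBS mouse 1 or 2 and 2817 without morphine mouse 1.1) and 0 to 2272 (Vdr-/- VTA, 0 without PBS mouse 7). They were 0 to 1 and 0 to 51 (51 without Vdr-/- PBS mouse 8) for the genotypes' differences in the NAc and VTA, 11267 to 12020 between regions, 0 in every case for region by genotype and 1167 to 2279 for region by injection. The members had at least 117 reads in each library and Vdr at most 17.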
